A study of Mus musculus with 8 samples.

Results

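The genes described here write, copy, remove or read methyl groups on cytosine in DNA: the DNA methyltransferase genes Dnmt1, Dnmt3a and Dnmt3b, the catalytically inactive partner gene Dnmt3l, the TET dioxygenase genes Tet1, Tet2 and Tet3, the maintenance cofactor gene Uhrf1 and the methyl-CpG reader gene Mbd2. The 9 genes were chosen by name for their role, with earlier results of these data known. Their probes were found through the transcript accession printed on the array. Of these, 8 had a matched probe, with 15 probes in all, out of 13811 genes that entered the tests. Tet1 was not analysed here. At least 1 probe of each of the 8 genes was well above background on all 8 arrays, so none of the 8 entered the tests only through a group in which it was high.

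The samples were neural stem and progenitor cells (NSPCs) grown as neurospheres, floating clusters of dividing neural precursors, from mouse embryonic stem cells (ESCs). Cells overexpressing (OE) NFIA, a transcription factor that acts at the onset of astrocyte formation, were cultured together with wild-type (WT) control cells and separated by fluorescence-activated sorting before RNA was taken. There were 4 groups of 2 arrays: NFIA cells of secondary neurospheres (SN_NFIA), control cells of secondary neurospheres (SN_control), NFIA cells of primary neurospheres (PN_NFIA) and control cells of primary neurospheres (PN_control). Secondary neurospheres were at passage 1 and day 12, primary neurospheres at passage 0 and day 6 after embryoid bodies. All groups share the origin from ESCs, the mixed culture and the sort, and the labels give no mouse strain, no promoter for the NFIA construct, no number of lines or clones, and no statement that equally titled samples are separate cultures, so p-values measure only the spread between these samples.

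The neural stem cell markers Sox2 and Nes, like the other 8 markers of that list, were well above background on all 8 arrays. So were 11 of the 13 pluripotency markers, Pou5f1 and Nanog among them. The authors' value table and the scanner files disagreed on the array of 7 samples out of 8, and the levels below take the array that the value table gives. In that assignment the passages lay in different rows of the slide and the cell types in different columns, and position cannot be told apart from either. Titles, which define the groups here, go against source names for 6 samples: the 4 controls are sourced from NFIA cells, and PN_NFIA 1 and SN_NFIA 2 from WT cells. Nfia itself, on its brighter probe, stood at 1.70 and 1.62 in SN_NFIA, against 1.00 and 0.61 in SN_control, and at -0.24 and 0.93 in PN_NFIA, against -1.30 and -0.30 in PN_control. On that probe its levels were higher in NFIA arrays within each passage, with a log2 difference of 1.00 ± 0.32 over both (limma, adjusted p = 0.172, 4 arrays against 4). The dimmer Nfia probe was also higher in NFIA arrays within each passage, by 1.95 on the means of 4 arrays, without a test. A probe may lie inside or outside the introduced sequence. With the attached files in place of the value table, limma called 0 genes of all tested in every comparison below, and a difference named as called below rests on the value table's assignment. Equally numbered NFIA and control arrays of a passage were taken to share a culture, so the passages hold 2 cultures each. With culture as a random replicate block, limma called 53 genes between passages over both cell types, in place of 1008 with 8 arrays taken as separate. Of 41 listed genes called in that comparison, Uhrf1 among them, 1 was called with the block, the neuron marker Slc17a6. Slc17a6 was well above background on 6 of the 8 arrays, so its difference is not exact. The calls over both cell types below are thus those that took the arrays as separate.

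DNA methylation in mammals is set by DNMT3A and DNMT3B, which methylate unmodified CG sites, with DNMT3L as a stimulating partner in germ cells and embryonic stem cells. It is copied to the new strand after replication by DNMT1, which UHRF1 guides to sites methylated on the parental strand alone. TET enzymes oxidise the methyl group as a step of its removal, and MBD2 binds methylated CG and brings in the NuRD chromatin complex. In the developing brain, demethylation of astrocyte gene promoters such as that of Gfap is known to accompany the change of neural precursors from making neurons to making astrocytes.

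The promoter windows of 4 members are shown because results below turn on these genes. They come from RefSeq on the mouse build GRCm38.p6 and run from 250 bases before to 50 bases after an annotated transcript start, 5′ to 3′ on the gene's strand. The windows thus hold upstream sequence and the start of the first exon. The 15 windows used here cover 8 of the 9 members, Tet1 included, and Mbd2 was left out. In the Dnmt1 window at chr9:20952574-20952873 (minus strand, 1 of 3 windows of the gene) and the Uhrf1 window at chr17:56304063-56304362 (plus strand, 1 of 2), capitals mark matches to TTTCGCGC or TTTGGCGC, forms of the sequence that E2F factors of the cell cycle bind, on either strand.
Dnmt1: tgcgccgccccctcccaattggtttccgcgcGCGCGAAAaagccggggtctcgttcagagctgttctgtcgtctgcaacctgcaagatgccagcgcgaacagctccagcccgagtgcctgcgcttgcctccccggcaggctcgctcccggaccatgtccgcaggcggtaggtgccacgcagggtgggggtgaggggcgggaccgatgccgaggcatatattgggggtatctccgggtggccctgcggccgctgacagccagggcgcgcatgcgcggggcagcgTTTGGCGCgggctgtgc
Uhrf1: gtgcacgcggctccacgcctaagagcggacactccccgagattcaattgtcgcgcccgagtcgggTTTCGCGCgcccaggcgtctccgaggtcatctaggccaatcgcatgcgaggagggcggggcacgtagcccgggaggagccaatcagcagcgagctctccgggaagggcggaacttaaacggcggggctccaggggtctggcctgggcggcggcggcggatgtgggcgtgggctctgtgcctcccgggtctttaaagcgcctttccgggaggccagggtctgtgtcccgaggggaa
Both windows were chosen after the matches were seen. TTTCGCGC was found in 0.323% of 32851 mouse promoter windows of the same length and TTTGGCGC in 0.514%. The other 13 windows of members held neither.

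The next windows show the difference in CG content between the genes of an enzyme and of its partner, at chr2:153649199-153649498 for Dnmt3b and chr10:78042037-78042336 for Dnmt3l (1 of 3 windows), both on the plus strand. Capitals mark each CG.
Dnmt3b: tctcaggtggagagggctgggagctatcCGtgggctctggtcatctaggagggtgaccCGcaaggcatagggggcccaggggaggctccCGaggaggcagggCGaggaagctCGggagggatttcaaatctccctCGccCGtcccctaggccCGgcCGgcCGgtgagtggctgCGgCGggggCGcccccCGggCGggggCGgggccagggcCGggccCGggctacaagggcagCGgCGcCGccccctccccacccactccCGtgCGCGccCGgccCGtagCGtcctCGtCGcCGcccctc
Dnmt3l: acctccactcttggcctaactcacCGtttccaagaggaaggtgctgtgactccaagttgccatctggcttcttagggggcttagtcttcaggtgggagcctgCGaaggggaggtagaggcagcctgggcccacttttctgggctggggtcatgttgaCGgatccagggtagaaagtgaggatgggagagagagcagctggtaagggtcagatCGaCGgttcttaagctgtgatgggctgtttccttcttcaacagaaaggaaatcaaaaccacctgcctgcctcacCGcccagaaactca
The Dnmt3b window held 30 CG, more than 88.3% of all windows, and the Dnmt3l window 6 CG, more than 43.6%. The median window held 7. The other members' windows with most CG were those of Tet2 (57 at chr3:133544341-133544640) and Dnmt3a (46 and 47, from chr12:3806730-3807029 and chr12:3806910-3807209). The full palindrome bound by NFI factors (TTGGC and GCCAA with 5 bases between) was in none of the 15 windows and in 0.0365% of all windows; its left arm, TTGGC, was in 46.7% of all windows, and TTTGGCGC contains it. These are matches of letters, read on both strands, and show no binding.

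Levels are log2 signals on the brightest probe of a gene, with the 75th percentile of the array set to 0, so they compare arrays and not genes. Differences between groups are in log2 units with the SE that limma gives, p-values were adjusted by Benjamini-Hochberg over all 13811 genes, and a gene was called when its adjusted p was under 0.05. Groups of 2 arrays often fail to overlap without any difference between them. The share of all genes without overlap was not counted, so lack of overlap below only describes the levels and is no test. In bulk RNA, fewer cells of a type and less RNA per cell cannot be told apart.

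**Figure D1:**
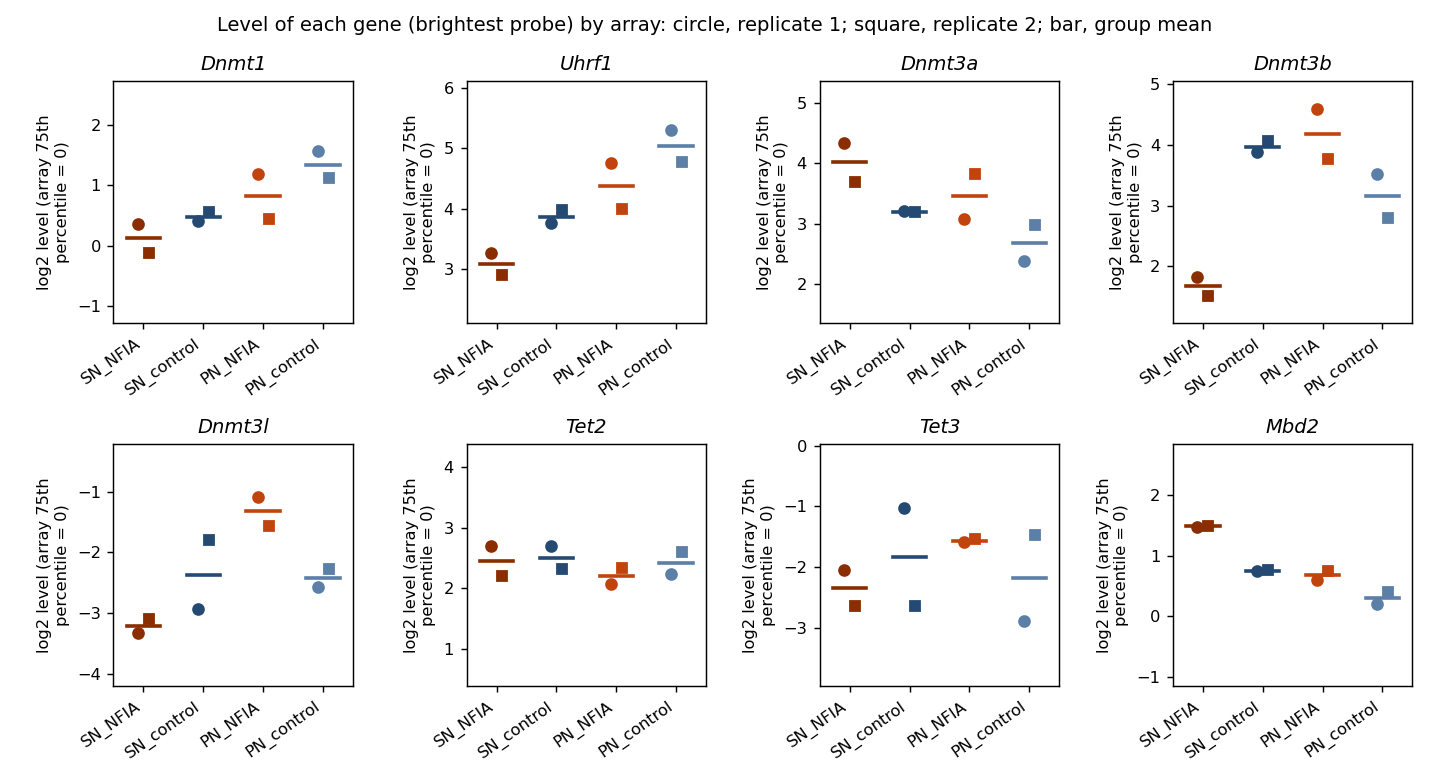
Each panel shows the log2 level of 1 gene (y axis, 75th percentile of the array = 0, all panels spanning the same number of log2 units) in the 4 groups of 2 arrays (x axis); the circle is replicate 1, the square replicate 2 and the bar their mean. Uhrf1 was lower on all 4 secondary than on all 4 primary arrays, and Dnmt3b stood at 1.83 and 1.51 in SN_NFIA, below the other 6 arrays.

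The maintenance pair, Uhrf1 and Dnmt1, was lower in secondary than in primary neurospheres, and Uhrf1 passed the test with arrays taken as separate but not with cultures. Uhrf1 stood at 3.27 and 2.91 in SN_NFIA and 3.76 and 3.98 in SN_control, against 4.76 and 3.99 in PN_NFIA and 5.31 and 4.78 in PN_control. The passages did not overlap, although the highest secondary array lay just under the lowest primary array. Uhrf1 fell by 1.23 ± 0.23 in secondary neurospheres, to 0.426 times the primary level (limma, 4 arrays against 4, adjusted p = 0.0271). It was the only member called in that comparison, 1 of 8, where 7.3% of all genes were called and 3.89% were called lower; at an unadjusted p under 0.05 it was 3 of 8 members and 26.3% of all genes. With culture as a random block the limma adjusted p was 0.0756, and on the means of 2 cultures against 2 it was 0.136. The call also did not hold with equal numbers of the 2 passages as a block (limma adjusted p = 0.0535), although these numbers do not pair the arrays, nor without PN_NFIA 1 (-1.07, limma adjusted p = 0.0830), PN_control 1 (-1.14, 0.0776), PN_control 2 (-1.35, 0.0575), SN_NFIA 1 (-1.29, 0.0607) or SN_NFIA 2 (-1.15, 0.0676), each left out in turn. The second, dimmer Uhrf1 probe gave -1.58 (limma adjusted p = 0.0434), with levels of -2.16 and -3.51 in SN_NFIA and -1.47 and -1.85 in SN_control, against -0.38 and -1.18 in PN_NFIA and -0.62 and -0.49 in PN_control.

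Between cell types, Uhrf1 was lower in NFIA than in control arrays within each passage on the brightest probe, without overlap in either, and the difference over both passages was -0.72 ± 0.23 (limma, adjusted p = 0.170). On the dimmer probe PN_NFIA 1 was the highest of the 8 arrays, and the NFIA difference in primary neurospheres was -0.22, against -0.66 on the brightest. Dnmt1, the maintenance methyltransferase, stood at 0.36 and -0.12 in SN_NFIA and 0.40 and 0.56 in SN_control, against 1.19 and 0.45 in PN_NFIA and 1.56 and 1.12 in PN_control. The array PN_NFIA 2 lay within the secondary range. The passage difference of Dnmt1 was -0.78 ± 0.23 (limma, adjusted p = 0.0776), with a 95% interval of -1.31 to -0.25. Its difference between NFIA and control over both passages was -0.44 ± 0.23 (limma, adjusted p = 0.374), and the groups overlapped in primary but not in secondary neurospheres. None of the 8 members was called in NFIA against control over both passages, where limma called 1.95% of all genes; at an unadjusted p under 0.05 it was 3 of 8 members and 17.7% of all genes.

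Replication genes moved with this pair from array to array. The median level of 23 replication and mitosis genes was 2.29 and 2.22 in SN_NFIA and 2.83 and 3.12 in SN_control, against 3.80 and 3.01 in PN_NFIA and 3.99 and 3.64 in PN_control. In secondary against primary neurospheres all 23 had a negative difference and 15 were called lower (median -0.99, against -0.08 over all genes). Of all genes 7.3% were called there and 3.89% were called lower. Mki67, a proliferation marker, fell by 0.90 ± 0.15 (limma, adjusted p = 0.0219) and Ccna2, the cyclin of S phase and the G2 phase, fell by 1.06 ± 0.17 (0.0211), as did the mitotic cyclin gene Ccnb1 by 1.27 ± 0.22 (0.0249). The other called genes were Mcm2, Mcm3, Mcm7, Cdc6, Cdt1 and Rrm2, which serve DNA replication, and Top2a, Ccnb2, Cdk1, Bub1, Aurka and Plk1, which serve mitosis. In NFIA against control cells over both passages all 23 were negative and 0 were called (median -0.47, against -0.05), with -0.80 ± 0.17 for Ccna2 (limma, adjusted p = 0.0653), and -0.76 for Mcm7 and -0.83 for Mcm3, subunits of the replicative helicase (0.178 and 0.189). The part of cell division in the Uhrf1 and Dnmt1 differences was not tested.

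The genes whose levels ran closest to Uhrf1 over the 8 arrays were Chaf1b (Pearson r = 0.997), which encodes a subunit of the replication-coupled histone chaperone CAF-1, Lrwd1 (0.995), whose product binds the origin recognition complex, and the helicase gene Blm (0.995). For Dnmt1 they were Ssb (0.991), which encodes the La RNA-binding protein, Thoc6 (0.987) and the nuclear pore gene Nup62 (0.985). These r describe 8 arrays of 4 groups on 1 slide, picked as the highest of all genes tested.

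**Figure D2:**
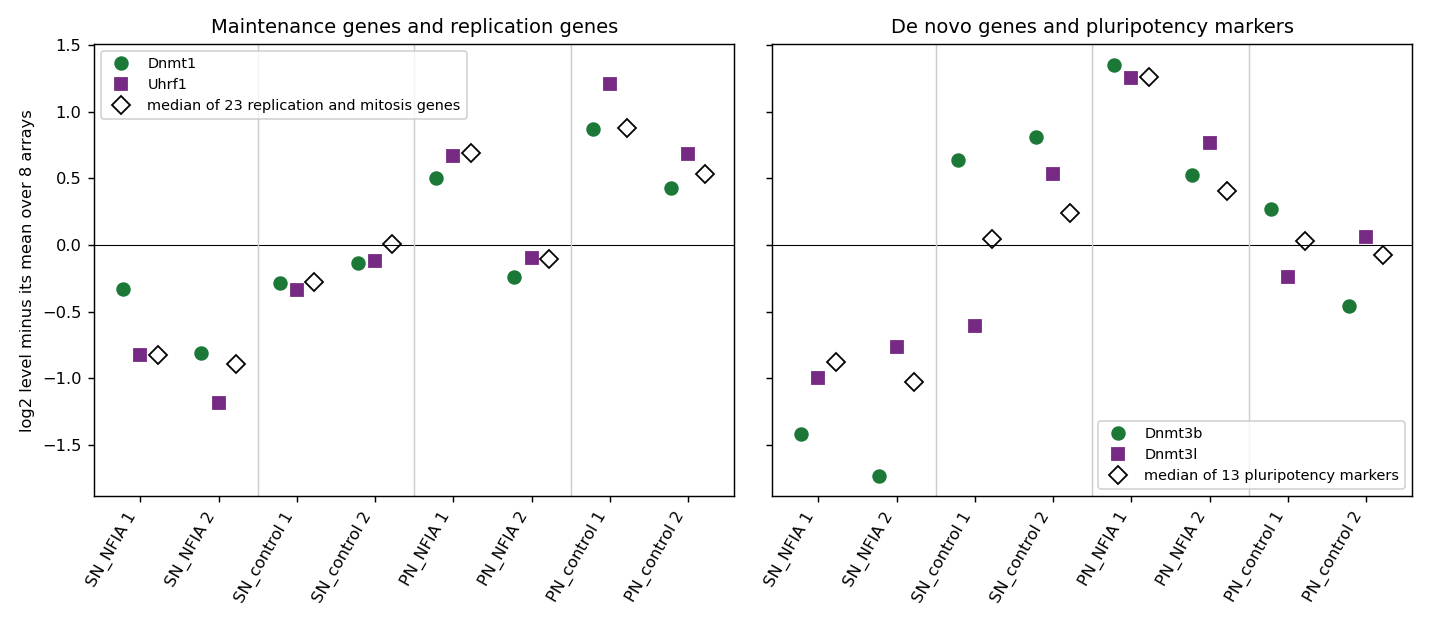
The y axis is a log2 level minus its own mean over the 8 arrays on the x axis; filled points are genes and open diamonds the median of a marker list (left, 23 replication and mitosis genes beside Dnmt1 and Uhrf1; right, 13 pluripotency markers beside Dnmt3b and Dnmt3l). The 2 SN_NFIA arrays are lowest for Uhrf1 and the replication median in the left panel, and for Dnmt3b, Dnmt3l and the pluripotency median in the right panel.

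Of the genes for new methylation, Dnmt3b differed between NFIA and control cells in opposite directions in the 2 passages. In secondary neurospheres it stood at 1.83 and 1.51 in SN_NFIA, against 3.88 and 4.06 in SN_control. In primary neurospheres it stood at 4.60 and 3.77 in PN_NFIA, against 3.52 and 2.79 in PN_control. The groups did not overlap in either passage, with NFIA arrays below control arrays in secondary and above them in primary neurospheres. The SN_NFIA arrays were the lowest of the 8, and the other 3 groups lay between 2.79 and 4.60.

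From primary to secondary neurospheres within NFIA cells, Dnmt3b fell by 2.51 ± 0.38, to 0.175 times the PN_NFIA level (limma, 2 arrays against 2, adjusted p = 0.0339). It was the only member called there, 1 of 8, where 1.88% of all genes were called and 1.34% were called lower; at an unadjusted p under 0.05 it was 4 of 8 members and 21.2% of all genes. The 2 dimmer probes gave -2.30 and -2.06, each short of the test among all probes (limma adjusted p = 0.0640 and 0.0781). With culture as a random block the limma adjusted p was 0.0327. Within NFIA cells each culture gave 1 array, so that block could not test the call. It did not hold with equal numbers of the 2 passages as a block (limma adjusted p = 0.0763), although these numbers do not pair the arrays, nor without PN_NFIA 1 (-2.10, limma adjusted p = 0.236), PN_NFIA 2 (-2.93, 0.0532), PN_control 1 or PN_control 2 (-2.51, 0.0647 each), SN_NFIA 1 (-2.67, 0.0771) or SN_NFIA 2 (-2.36, 0.149). In control cells the passage difference was 0.82 ± 0.38 (limma, adjusted p = 0.402), where 0 of 8 members and 0.768% of all genes were called, and at an unadjusted p under 0.05 it was 2 of 8 members and 13.5% of all genes.

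NFIA against control in secondary neurospheres differed by -2.30 ± 0.38 for Dnmt3b, with a 95% interval of -3.19 to -1.41 (limma, 2 arrays against 2, adjusted p = 0.0505). With equally numbered arrays as a replicate block the limma adjusted p was 0.0298, the lowest of all alternatives, which reached 0.987. Limma called 0 of 8 members here without the block and 1 with it, and 0.934% of all genes without it, 129, against 647 with it; at an unadjusted p under 0.05 it was 2 of 8 members and 15.1% of all genes. In primary neurospheres the difference was 1.03 ± 0.38 (limma, adjusted p = 0.429), where 0 of 8 members and 0.311% of all genes were called, 43 without and 68 with the block, and 2 of 8 members and 9.57% of all genes at an unadjusted p under 0.05. The NFIA effect in secondary minus that in primary neurospheres was -3.33 ± 0.53 for Dnmt3b, with a 95% interval of -4.59 to -2.08. Its p was 0.000413 before adjustment and its limma adjusted p 0.160. Limma called 0 of 8 members and 0% of all genes in that difference of effects, and 6.76% had an unadjusted p under 0.05, 2 of the 8 members among them.

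On all 3 Dnmt3b probes SN_NFIA had the lowest mean and PN_NFIA a higher mean than PN_control, while the highest mean was that of PN_NFIA on the brightest probe and of SN_control on the others. The second probe stood at -1.30 and -1.09 in SN_NFIA, against 1.28 and 1.46 in SN_control, and at 1.69 and 0.52 in PN_NFIA, against 1.00 and -0.06 in PN_control, where the primary groups overlapped. The last stood at -1.35 and -0.87 in SN_NFIA, against 1.17 and 1.29 in SN_control, and at 1.52 and 0.38 in PN_NFIA, against 0.84 and -0.18 in PN_control. The gap between NFIA and control arrays in secondary neurospheres was thus shared by the 3 probes, while the primary groups overlapped on the 2 dimmer probes. Between equally numbered arrays, NFIA minus control in primary neurospheres was 1.08 and 0.98 on the brightest probe, 0.69 and 0.59 on the second and 0.68 and 0.56 on the last, positive in each pair.

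**Figure D3:**
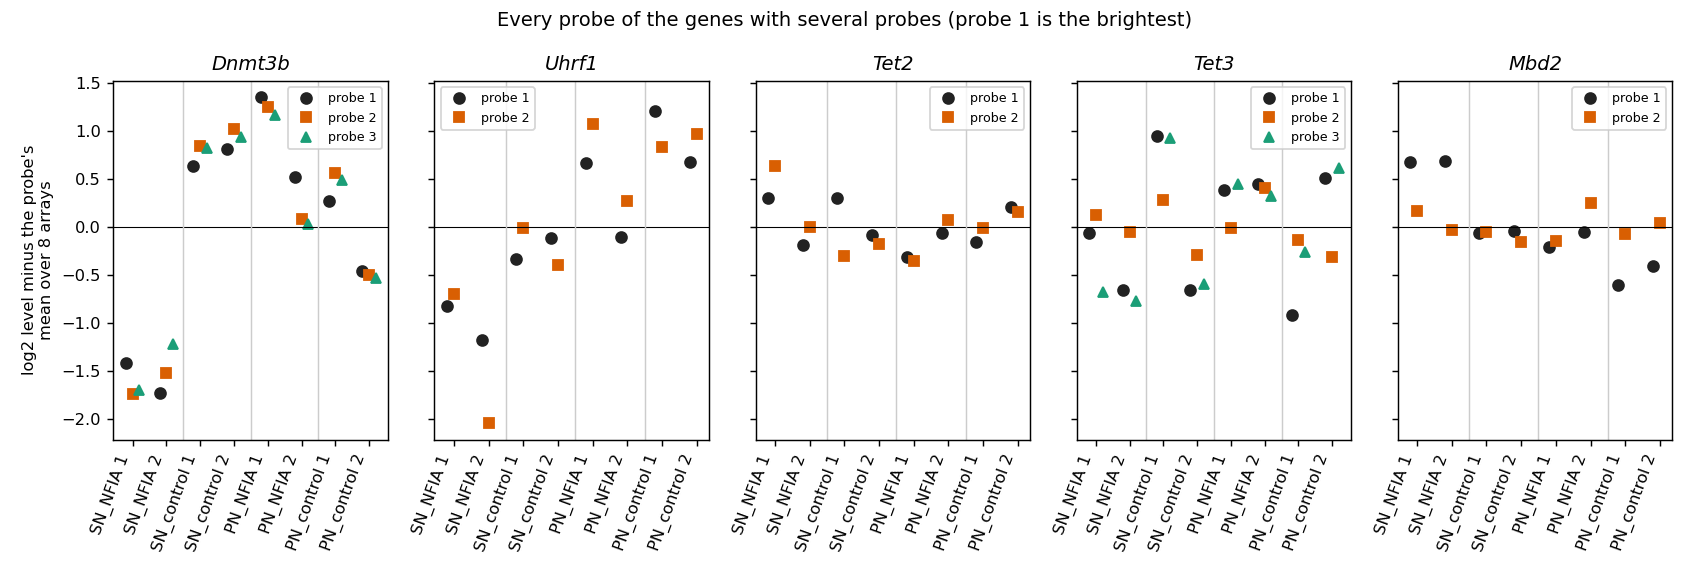
The y axis is the log2 level of each probe minus its own mean over the 8 arrays on the x axis, for the 5 members with several probes. The probes of Dnmt3b and Uhrf1 moved alike, with SN_NFIA lowest, whereas only the brighter Mbd2 probe had its highest levels on both SN_NFIA arrays and the probes of Tet2 and Tet3 showed no common order of groups.

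Dnmt3l, the catalytically inactive partner, had its highest levels in PN_NFIA. It stood at -3.33 and -3.10 in SN_NFIA, against -2.94 and -1.80 in SN_control, and at -1.08 and -1.57 in PN_NFIA, against -2.57 and -2.27 in PN_control. Dnmt3l was well above background on all 8 arrays, but its signals were low. The lowest signal well above background was 23.0 to 39.6 on secondary arrays and 16.8 to 19.2 on primary arrays, so differences at these levels are less exact. As for Dnmt3b, NFIA arrays lay below control arrays in secondary and above them in primary neurospheres, without overlap, although SN_control 1 was close to the SN_NFIA arrays. The NFIA difference was -0.84 ± 0.41 in secondary (limma, adjusted p = 0.396) and 1.10 ± 0.41 in primary neurospheres (0.440). The difference of these effects was -1.94 ± 0.58 (limma, adjusted p = 0.504). Between passages Dnmt3l differed by -1.89 ± 0.41 in NFIA cells (limma, adjusted p = 0.0667) and by 0.05 ± 0.41 in control cells (0.966). With 1 array left out, the limma adjusted p in NFIA cells lay between 0.0268, without either SN_control array, and 0.409, without PN_NFIA 1.

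Pluripotency markers showed the same order of groups as Dnmt3b and Dnmt3l on their median. The median level of 13 such markers was -1.02 and -1.17 in SN_NFIA, against -0.09 and 0.10 in SN_control, and 1.13 and 0.27 in PN_NFIA, against -0.11 and -0.21 in PN_control. Their summed level, in units of the 75th percentile of an array, was 12.6 and 33.7 in SN_NFIA and 30.6 and 51.7 in SN_control, against 91.9 and 58.9 in PN_NFIA and 45.9 and 46.2 in PN_control. Sums here and below are weighted to the brightest probes of a list and give no amount of a cell type. In this list these were Dppa5a (log2 level 5.98 in PN_NFIA 1) and, in SN_NFIA 2, Tdgf1 (4.18). Pou5f1, a defining gene of the pluripotent state, stood at -3.72 and -2.68 in SN_NFIA, against -1.28 and -0.24 in SN_control, and at -0.23 and -1.15 in PN_NFIA, against -1.23 and -1.81 in PN_control.

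In NFIA cells 6 of the 13 were called lower in secondary than in primary neurospheres, namely Zfp42, Esrrb, Fgf4, Utf1, Dppa5a and L1td1. Of all genes 1.88% were called in that comparison and 1.34% were called lower. The median over the list was -2.09, against -0.05 over all genes. Fgf4, a growth factor gene of early embryos, fell by 2.84 ± 0.31 there (limma, adjusted p = 0.0214) and was the marker called in NFIA against control in secondary neurospheres, with -2.30 ± 0.31 (0.0347). Nanog did not share this order, with 0.03 and 0.28 in SN_NFIA, against 0.53 and -0.29 in SN_control, and -0.27 and 0.12 in PN_NFIA, against -0.80 and -0.33 in PN_control. Nor did Tdgf1, with 1.46 and 4.18 in SN_NFIA, against 2.23 and 3.05 in SN_control, and SN_NFIA 2 the highest of all arrays. Klf4 was higher in NFIA arrays in both passages. Over both cell types Esrrb was called between passages (-1.72 ± 0.35, limma, adjusted p = 0.0331), and Tfcp2l1 (-1.45) and Dppa5a (-2.09) were not (0.0570 and 0.0872). Between NFIA and control over both passages Klf4, which neural cells also express, rose by 1.33 ± 0.22 (limma, adjusted p = 0.0306). In primary neurospheres all 13 markers were higher in NFIA arrays on their difference and 0 were called (median 0.83). The part of residual pluripotent cells in the Dnmt3b and Dnmt3l differences was not tested.

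Across the 8 arrays the levels most like Dnmt3b were those of Fgf5 (Pearson r = 0.985), a growth factor gene of the primed epiblast, Stap2 (0.981) and Tmem88 (0.979). For Dnmt3l they were Igfbp1 (0.989), which encodes a binding protein of insulin-like growth factors, the transcription factor gene Spic (0.981) and the metal transporter gene Slc39a8 (0.981).

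Dnmt3a, the other de novo enzyme and the one that persists in brain, differed the other way from the maintenance pair and did not pass the test. It stood at 4.33 and 3.69 in SN_NFIA, against 3.20 and 3.19 in SN_control, and at 3.09 and 3.82 in PN_NFIA, against 2.38 and 2.98 in PN_control. NFIA arrays lay above control arrays in both passages without overlap, while passages overlapped. The difference over both passages was 0.79 ± 0.25, 1.73 times the control level (limma, adjusted p = 0.161), with a 95% interval of 0.22 to 1.36. The passage difference was 0.54 ± 0.25 (limma, adjusted p = 0.215). The levels most like Dnmt3a over the 8 arrays were those of Sfxn3 (r = 0.979), Klf15 (0.979), a transcription factor gene, and Rab32 (0.977).

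Tet2 varied least among the members over the arrays. It stood at 2.69 and 2.20 in SN_NFIA, against 2.70 and 2.31 in SN_control, and at 2.08 and 2.33 in PN_NFIA, against 2.23 and 2.60 in PN_control. All 4 groups overlapped within a range of 0.62, at the 10.6th percentile of the ranges of all genes tested. The difference between NFIA and control was -0.13 ± 0.20 (limma, adjusted p = 0.776, 95% interval -0.59 to 0.32) and that between passages 0.17 ± 0.20 (0.634, interval -0.29 to 0.62). The dimmer probe gave 0.17 for NFIA against control. Tet3 stood at -2.04 and -2.64 in SN_NFIA, against -1.03 and -2.64 in SN_control, and at -1.59 and -1.54 in PN_NFIA, against -2.90 and -1.47 in PN_control. Its replicates lay far apart in both control groups, and its within-group SD of 0.79 was the highest among the members. Tet3 differed by 0.06 ± 0.47 between NFIA and control (limma, adjusted p = 0.966, interval -1.03 to 1.14) and by -0.21 ± 0.47 between passages (0.810, interval -1.29 to 0.87), the widest intervals among these 6 members. The dimmer Tet3 probes did not share the order of the brightest. Zfp251 (r = 0.970), Wdr26 (0.960) and Pcdhb16 (0.948) had the levels most like Tet2, and Pip5k1c (0.986), Xpo6 (0.979) and Myl6b (0.976) those most like Tet3.

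Mbd2, the reader, had the closest replicates of the 8 members, with a within-group SD of 0.088. On its brightest probe Mbd2 was higher in NFIA than in control arrays in both passages. It stood at 1.48 and 1.50 in SN_NFIA, against 0.74 and 0.76 in SN_control, and at 0.60 and 0.75 in PN_NFIA, against 0.20 and 0.39 in PN_control. The groups of a passage did not overlap, and PN_NFIA 2 lay at the level of the SN_control arrays. The NFIA difference was 0.56 ± 0.16, 1.47 times the control level (limma, adjusted p = 0.133), and the passage difference 0.63 ± 0.16, 1.55 times the primary level (0.0542). With 1 array left out, the limma adjusted p of the passage difference lay between 0.0497, without SN_control 1, and 0.174, without PN_NFIA 1. The dimmer Mbd2 probe, well above background on all 8 arrays, gave -0.04 between passages, so the probes disagree. For NFIA against control over both passages it gave 0.12 (limma, adjusted p = 0.770 among all probes). On this probe NFIA and control arrays overlapped in primary but not in secondary neurospheres. The levels most like Mbd2 were those of Cyp4f17 (r = 0.992), Cldn20 (0.983) and Timp2 (0.983), a metalloproteinase inhibitor gene.

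**Figure D4:**
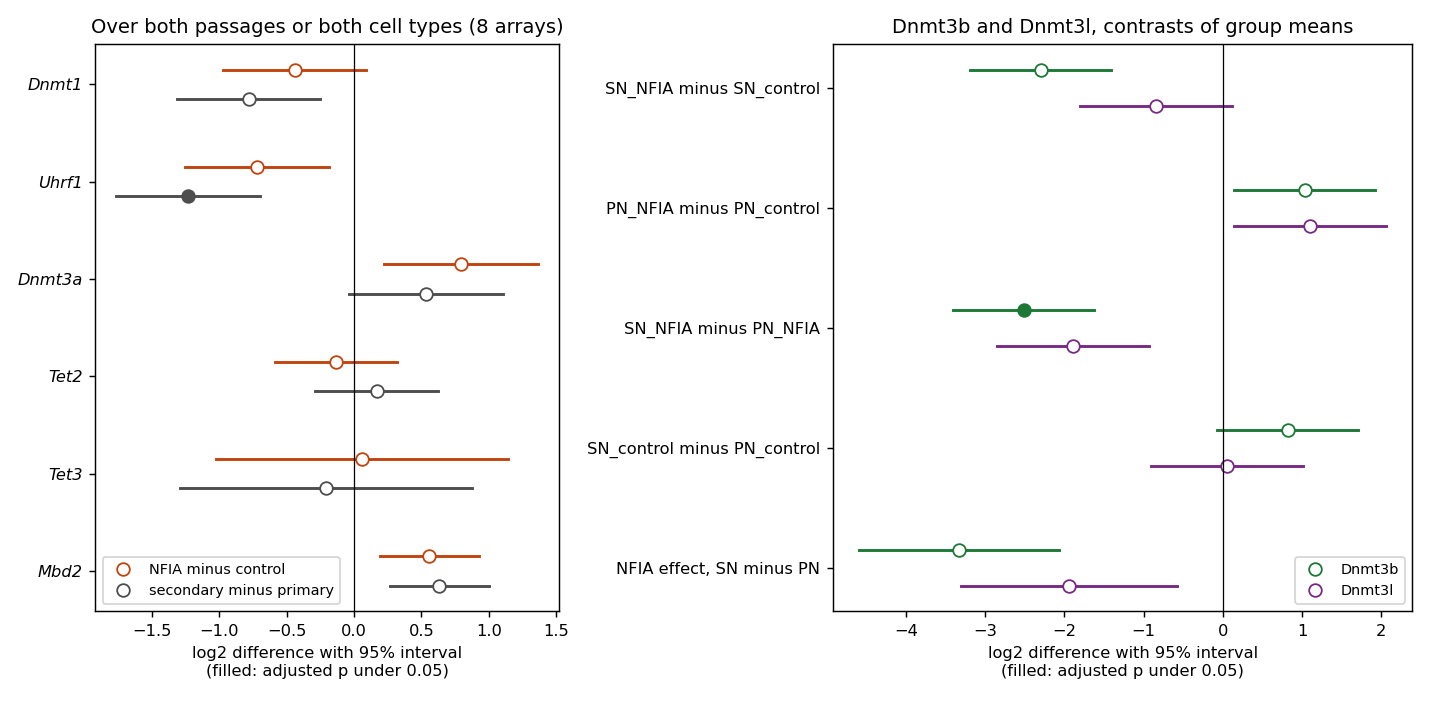
The x axis is the log2 difference with its 95% interval from limma; filled points have an adjusted p under 0.05 over all genes. Left, 6 members over both passages (NFIA minus control) or both cell types (secondary minus primary); right, Dnmt3b and Dnmt3l in contrasts of group means. The filled points are Uhrf1 between passages at -1.23 and Dnmt3b between SN_NFIA and PN_NFIA at -2.51.

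As a set, the 8 members had no common direction between NFIA and control cells: 4 were higher and 4 lower over both passages, with a median of -0.04, against -0.05 over all genes. In secondary neurospheres 2 were higher and 6 lower in NFIA cells (median -0.43, against -0.02), and in primary neurospheres 5 were higher and 3 lower (0.50, against -0.08). Between passages 3 were higher and 5 lower in secondary neurospheres over both cell types (-0.50, against -0.08). Within NFIA cells the median was -0.74, against -0.05 over all genes, and within control cells 0.22, against -0.12. These comparisons share arrays.

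Other genes of the pathway were listed by role. Between passages over both cell types 3 of 15 partners and guides and 1 of 8 genes listed with the readers were called. Of demethylation genes 0 of 15 were called and of methyl donor genes 1 of 11, where 7.3% of all genes were called. Between NFIA and control over both passages 0 of each list were called by limma, where 1.95% of all genes were. Counts this small are not set apart from those shares. Of 15 partners and guides of the methyltransferases, 3 were called lower in secondary neurospheres, and 14 of 15 differences were negative (median -0.37). Cdca7 and Hells, which together form a chromatin remodeller needed for methylation, fell by 1.48 ± 0.28 (limma, adjusted p = 0.0271) and 1.21 ± 0.23 (0.0275). Hells stood at -1.33 and -1.14 in SN_NFIA and -0.63 and -0.27 in SN_control, against 0.50 and -0.18 in PN_NFIA and 0.83 and 0.31 in PN_control. Lig1, the ligase that joins replication fragments and recruits UHRF1, fell by 0.97 ± 0.20 (0.0338). Zfp57, a guardian of imprints, differed by -1.56 ± 0.39 between passages (limma, adjusted p = 0.0551), with its lowest levels, -2.65 and -3.26, in SN_NFIA. In NFIA against control cells 12 of the 15 were negative and 0 were called (median -0.44), with -0.57 ± 0.20 for Lig1 (limma, adjusted p = 0.206), -0.60 ± 0.23 for Hells (0.236) and an adjusted p of 0.245 for Zfp57.

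Another 8 genes were listed with the readers of methylated CG, not all of them shown to bind it. Of these, Mbd4, a glycosylase that repairs deaminated methyl-CG, fell by 0.80 ± 0.17 in secondary neurospheres (limma, adjusted p = 0.0343). Mbd4 stood at -1.91 and -1.86 in SN_NFIA and -1.40 and -0.93 in SN_control, against -1.09 and -1.10 in PN_NFIA and -0.23 and -0.47 in PN_control, lower in NFIA arrays in each passage. Its NFIA difference was -0.73 ± 0.17 (limma, adjusted p = 0.0786). Zbtb4, another reader, differed by 0.81 ± 0.21 between NFIA and control (0.107) and by 0.62 ± 0.21 between passages (0.112). Mbd3, a NuRD subunit gene, differed by -0.29 ± 0.16 between NFIA and control (0.389), and Uhrf2, the paralogue of Uhrf1, by -0.49 ± 0.15 between passages (0.0903). Over the list 3 of 8 differences were positive for NFIA and 5 of 8 for passage, with medians of -0.21 and 0.01.

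None of 15 demethylation and base excision genes was called in either comparison by limma, with 10 lower in NFIA cells (median -0.22) and 14 lower in secondary neurospheres (-0.41). Gadd45b, a stress-response gene linked to active demethylation in neurons, stood at 0.16 and 0.75 in SN_NFIA, against -1.06 and -0.17 in SN_control, and at -0.13 and 0.03 in PN_NFIA, against -1.17 and -1.20 in PN_control. It was higher in NFIA arrays in each passage without overlap, by 1.10 ± 0.24 over both (limma, adjusted p = 0.0653). Idh1, whose product makes the 2-oxoglutarate that TET enzymes use, differed by -0.72 ± 0.20 (0.124), and Parp1 by -0.60 ± 0.18 (0.157). Between passages Idh1 differed by -0.71 ± 0.20 (0.0665), Xrcc1, a scaffold of base excision repair, by -0.57 ± 0.17 (0.0743) and Tdg, the glycosylase that removes TET products, by -0.58 ± 0.23 (0.155).

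Of 11 genes of the methyl donor cycle, which makes S-adenosylmethionine, Shmt2 of its folate arm fell by 0.87 ± 0.16 in secondary neurospheres (limma, adjusted p = 0.0251), with 9 of 11 differences negative (median -0.19). Ahcy, which clears the inhibitory product of methylation, differed by -0.95 ± 0.26 (0.0684) and Shmt1, the cytosolic counterpart of Shmt2, by -0.69 ± 0.29 (0.176). Between NFIA and control all 11 were negative and 0 were called (median -0.29), with -0.52 ± 0.16 for Shmt2 (limma, adjusted p = 0.147), -0.37 for Gnmt (0.378) and -0.42 for Ahcy (0.466).

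Among genes whose own silencing or dosage depends on DNA methylation, 5 of 15 germline genes were tested and 0 were called in either comparison by limma. One of them, Tex19.1, a germline and embryonic stem cell gene, had the order of groups of Dnmt3b: -4.55 and -2.82 in SN_NFIA, against -2.13 and -1.06 in SN_control, and -0.33 and -1.59 in PN_NFIA, against -2.29 and -2.17 in PN_control. Over both cell types the passage difference was -1.05 for Tex19.1 and -1.32 for Sycp3, and the NFIA difference -0.35 for Brdt and 0.14 for Taf7l (limma, adjusted p 0.326 to 0.810). Tex19.1 was well above background on 7 of the 8 arrays and Sycp3 on 6, so their differences are not exact. Tex101 was well above background on 3 of the 8 arrays, so its levels, -5.44 to -3.92, give no exact difference. The NFIA difference of Tex19.1 was -2.09 ± 0.67 in secondary (limma, adjusted p = 0.208) and 1.27 ± 0.67 in primary neurospheres (0.642). Of 21 imprinted genes, Cdkn1c, a cell cycle inhibitor gene, fell by 1.47 ± 0.33 (0.0398) and Grb10, a growth inhibitor gene, by 1.31 ± 0.29 (0.0402) in secondary neurospheres. Over that list 17 of 21 were negative between passages (median -0.30) and 14 of 21 between NFIA and control, where 0 were called (median -0.26). The share of all genes called was 7.3% between passages and 1.95% between NFIA and control. Meg3, a maternally expressed long RNA, differed by -1.28 ± 0.33 between passages (limma, adjusted p = 0.0574), and the NFIA differences with the smallest p were -1.18 for Cdkn1c, 0.93 for Nnat and -0.93 for Usp29 (0.127, 0.203 and 0.375).

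Markers of other cell types also differed between these groups. Of all genes, 7.3% were called between passages over both cell types (3.89% lower) and 1.95% in NFIA against control over both passages. Between passages 1.88% were called within NFIA cells and 0.768% within control cells. In NFIA against control in secondary neurospheres 0.934% were called. Astrocyte markers were higher on 11 of 12 differences both in NFIA against control and in secondary against primary neurospheres (medians 1.79 and 2.01). Sparcl1 was called in both comparisons and Aldh1l1 between passages. Gfap, also called between passages, was well above background on 2 arrays, both SN_NFIA. It passed the filter only through that group, in which it was high, so its call gives no support. Their summed level was 519 and 1169 in SN_NFIA and 57.9 and 260.1 in SN_control, against 80.7 and 214 in PN_NFIA and 23.5 and 25.5 in PN_control. The brightest probes in that sum were those of Sparcl1 and Aldoc (log2 levels 8.25 and 7.21 in SN_NFIA 1). Neuron markers were lower on 11 of 13 differences in NFIA cells (median -1.11, 0 called) and 5 of 13, namely Stmn2, Slc17a6, Elavl4, Nefl and Nefm, were called lower in secondary neurospheres. Mesenchyme markers were higher in secondary neurospheres on 8 of 9 differences, with Col1a1, Col3a1 and Dcn called, and Acta2 and Prrx1 were called higher in NFIA against control over both passages. As for Dnmt3b, the median of their NFIA differences had opposite signs in the 2 passages, with 6 of 9 lower in secondary (median -0.68) and 9 of 9 higher in primary neurospheres (1.86), 0 called in either by limma, and the difference of these effects was negative for 8 of 9 (-2.57). Their summed level was 67.2 and 81.5 in SN_NFIA and 66.4 and 108.3 in SN_control, against 19.6 and 29.1 in PN_NFIA and 8.59 and 5.38 in PN_control. Within control cells Col1a1, Col3a1, Pdgfrb and Lum were called higher in secondary neurospheres (list median 3.49). Oligodendrocyte lineage markers were higher in secondary neurospheres on 7 of 8, with Olig1, Sox10, Pdgfra and Cspg4 called, and Mbp, the myelin basic protein gene, was called lower in SN_NFIA against both SN_control (-2.05) and PN_NFIA (-1.88). The median NFIA difference of the endoderm markers also had opposite signs: 5 of 6 NFIA differences were negative in secondary (median -0.46) and 5 of 6 positive in primary neurospheres (1.92), and 5 of 6 were negative between passages in NFIA cells (-1.67) and for the difference of effects (-1.85). Their summed level was 13.8 and 8.97 in SN_NFIA and 12.4 and 17.2 in SN_control, against 19.2 and 22.7 in PN_NFIA and 16.4 and 20.4 in PN_control. The brightest probes in that sum were those of Foxa2 and Foxa1 (log2 levels 3.58 and 2.46 in PN_NFIA 1). Of the endoderm markers, Afp and Sox7 were well above background on 4 of 8 arrays, Sox17 on 5 and Ttr on 7. The differences of these genes, and the list medians that rest on them, are thus not exact. Sox7 stood at -3.06 and -2.22 in SN_NFIA, against -5.30 and -5.89 in SN_control. In primary neurospheres it stood at -3.80 and -4.12 in PN_NFIA, against -6.19 and -6.35 in PN_control. Sox7 was called higher in NFIA cells over both passages and in secondary neurospheres. It passed the filter only through groups in which it was high, so these calls give no support. Of 10 neural stem cell markers, Slc1a3 was called higher and Pax6 lower in secondary neurospheres, and 0 were called in NFIA against control over both passages. The part of these cell types in the members' differences was not tested.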

How the data were processed

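RNA of sorted cells was hybridised to 8 one-colour Agilent arrays on 1 slide. The deposited scanner files hold, per the file headers, spot intensities that Feature Extraction 10.5.1.1 background-subtracted and detrended within each array, and flags for each spot; the submitters' processing notes name version 10.7.3.1. The authors' value table holds log2 values, which the numbers themselves show to be scaled to each array's 75th percentile and centred on each probe's median (largest absolute probe median 0.000245; column medians -0.156 to 0.22). Each of its columns correlated with 1 scanner file at 0.99976 or more and with any other at 0.335 or less, which gave the array of each sample.

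Processed signals were taken to log2 and the array's 75th percentile, 303 to 619 before the log, was subtracted. Spots well above background made up 45.4% to 56.4% of an array, 0 were saturated, and the number of arrays limits the precision. A probe was kept when both arrays of any group had it well above background, 126 probes with outlier flags were left out, and the brightest probe stood for a gene. Symbols came from RefSeq by transcript accession, for 26056 of 55681 probes. Genes were fitted with limma 3.58.1 in R 4.3.3, with 4 group means or with additive passage and NFIA terms, and adjusted over all 13811 genes.

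The members, lists, markers and tests were chosen with earlier results of these data known. Named are all members, the called members of each other list and, for lists other than the markers of differentiated cells, its 3 genes with the smallest p over both passages or both cell types, Nfia, and the 3 genes most correlated with each member; other genes named were chosen after their values were seen. A result on 1 gene of the methyl donor cycle list is not reported here, and the list's counts leave that gene out. Of 3 blood and microglia markers tested, 0 were called in NFIA against control over both passages. Deviations from the group mean of equally numbered NFIA and control arrays correlated at 0.483 in secondary and 0.444 in primary neurospheres, so numbers were taken as pairs of a shared culture within a passage; between passages the correlations were 0.0425 in NFIA and -0.188 in control cells, and they were not. The alternatives were another background correction (normexp, run on median spot signals since mean signals were not in the columns used here), quantile normalization, no filter on dim probes, the value table, all probes averaged, a trended prior, the replicate block, fits of 2 groups, culture as a random block (limma's duplicateCorrelation, consensus correlation 0.328 for passage over both cell types) or averaged, both added after seeing the data, the attached files, the source names and each array left out. In arrays simulated as independent, without shared cultures, the fit was checked to recover known changes. That check cannot tell how shared cultures affect the calls.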

Additional observations from a re-analysis of the deposited data

Results flagged for a closer look

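The NFIA effect on Dnmt3b, the enzyme for new methylation, had opposite signs in the 2 passages on its brightest probe: both SN_NFIA arrays lay below both SN_control arrays, and both PN_NFIA arrays above both PN_control arrays. On the 2 dimmer probes the primary groups overlapped. The effect in secondary minus that in primary neurospheres was -3.33 ± 0.53 in log2 units, with a limma adjusted p of 0.160 over all genes, and 0.0803 with the replicate block.

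For Dnmt3l, its inactive partner, the signs were opposite in the same way, and the difference of effects was -1.94 ± 0.58 (limma, adjusted p = 0.504).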

How the results depend on the processing

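Over 22 differences of members, 426 alternative values were computed, of which 361 kept the direction and the side of the threshold, 22 kept the direction and lost a call, 9 gained one and 34 changed sign. In NFIA against control in secondary neurospheres 1 member was called in place of 0, Dnmt3b, with normexp, quantile normalization, a trended prior or the replicate block. Between passages over both cell types the count was 2 with quantile normalization or a trended prior, Mbd2 joining Uhrf1, and 0 with the replicate block, the attached files, culture as a random block, the mean of a culture's arrays (both chosen after seeing the data) or without the 2 NFIA arrays sourced from WT cells; with 1 array left out it lay between 0 and 2. Within NFIA cells it was 0 without the filter on dim probes, with averaged probes, the replicate block, 2 groups alone, the attached files or without those 2 arrays, and between 0 and 2 with 1 array left out. With the block, Uhrf1 had an adjusted p of 0.0535 and Dnmt3b in NFIA cells 0.0763; numbers do not pair samples between passages. The block changed no other call of a member. A crossed replicate block in control cells, chosen after seeing the data, called 0 members and 64 genes.

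With the attached files the NFIA difference was -0.022 for Dnmt3a, 0.059 for Uhrf1 and -0.18 for Mbd2, and in secondary neurospheres 1.73 for Dnmt3b and 0.82 for Dnmt3l. The passage difference was 0.14 for Dnmt1, -0.49 for Dnmt3a, -0.18 for Tet2, 0.18 for Uhrf1 and -0.088 for Mbd2, 0.33 for Dnmt3b in NFIA cells and -0.032 for Dnmt3l in control cells, and the difference of effects was 0.12 for Dnmt3b. With cell types from the source names the NFIA difference was 0.21 for Dnmt1, -0.072 for Dnmt3a, 0.34 for Tet2, 0.34 for Uhrf1 and -0.33 for Mbd2. Without the 2 arrays it was 0.052 for Tet2, and the passage difference 0.066 for Tet3. With averaged probes the NFIA difference was 0.020 for Tet2 and -0.018 for Tet3. Dimmer probes gave 0.17 for Tet2 and -0.34 for Tet3 there, and 0.029 for Tet3 and -0.036 for Mbd2 between passages. Quantile normalization gave -0.095 for Dnmt3l between passages in control cells. With 1 array left out, Tet3 ranged from -0.34 to 0.49 for NFIA and from -0.65 to 0.020 for passage, and Dnmt3l from -0.52 to 0.62 for passage in control cells. The cause was not tested for any of these.

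Counts over all genes were 0 to 350 for NFIA over both passages (270 as reported), 0 to 647 in secondary (129) and 0 to 140 in primary neurospheres (43), 0 to 1667 for passage (1008), 0 to 743 in NFIA cells (260), 0 to 445 in control cells (106) and 0 to 30 for the difference of effects (0). Without the filter on dim probes the median of all genes moved by up to 0.20.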
